A study of Mus musculus with 12 samples.

Results

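The response of the WT cerebellum to wheel running was examined in 6 bulk RNA libraries, 3 from WT exercise and 3 from WT sedentary mice, out of 12 libraries in the series. They were chosen by their labels alone. All 6 mice were C57BL/6J and carried no expanded Atxn1 allele. The other 6 mice carried Atxn1 154Q/2Q, a knock-in model of spinocerebellar ataxia type 1 (SCA1), 3 with wheels and 3 without. The study describes its WT and SCA1 mice as littermates, without saying which mice shared a litter. Exercise mice had unrestricted access to a cage wheel for 12 weeks, from 4 to 16 weeks of age, and lived alone. Wheels were taken away some days before the behavioural tests, so the tissue was not taken during access to a wheel. Sedentary mice had no wheel and lived in groups, so wheel and housing cannot be told apart in these libraries. For motor and cognitive tests, the study reports no difference between group-housed mice and solo-housed mice with a fixed wheel. Behavioural tests came before the tissue was taken, and each library came from the cerebellum of a single mouse. Mice are given by number: 116, 117 and 192 were WT sedentary and 121, 197 and 201 were WT exercise, and values are listed in that order.

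The cerebellum holds granule cells, Purkinje cells, interneurons and glia. It forms part of the roof of the fourth ventricle, where it borders ependyma, meninges and the choroid plexus, the epithelium that secretes cerebrospinal fluid. Transthyretin (Ttr), the folate receptor Folr1 and Klotho (Kl) are made at high levels by choroid plexus epithelium and at low levels by neurons. In bulk tissue, more cells of a type and more RNA per cell cannot be told apart.

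Between 22944278 and 32127508 read pairs were counted on genes in each of the 6 libraries. Values are given as CPM, the count of a gene divided by the size of its library, with library sizes scaled by the TMM method of edgeR. Cerebellar markers were high in every library: the 20 granule cell markers summed to between 10486 and 11093 CPM, and the 22 Purkinje cell markers to between 12231 and 13631 CPM. Pairs that fell on no gene made up 50.9% to 56.8% of exercise and 46.0% to 51.8% of sedentary libraries (exact permutation p = 0.2). Mouse 201 had Xist at 1570.1 CPM and Ddx3y at 0.0803 CPM, whereas the other 5 mice had Xist at 1.09 CPM or less and Ddx3y at 56.1 CPM or more. The exercise group thus held a library with female expression and the sedentary group held none.

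Of 19301 genes tested with edgeR's quasi-likelihood test on the 6 WT libraries, 150 (0.777%) were differentially expressed genes (DEGs), defined as an adjusted p below 0.05 (Benjamini-Hochberg) together with a log2 fold change (log2FC) beyond 0.5 in either direction. In exercise mice 138 were higher (0.715%) and 12 were lower (0.0622%). This number depended on the libraries that shared the fit. One edgeR model of all 12 libraries called 0 of 20341 genes in the same contrast, with 955 (4.69%) at an unadjusted p under 0.05, and DESeq2 on the 12 libraries called 65. Of the 150 DEGs, 135 had an unadjusted p under 0.05 in the 12-library model, which used the same WT libraries. In all 150 the groups did not overlap, against 21.4% of all genes tested, 11% with exercise above and 10.4% with exercise below. The median log2FC over all genes tested was 0.01.

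**Figure D1:**
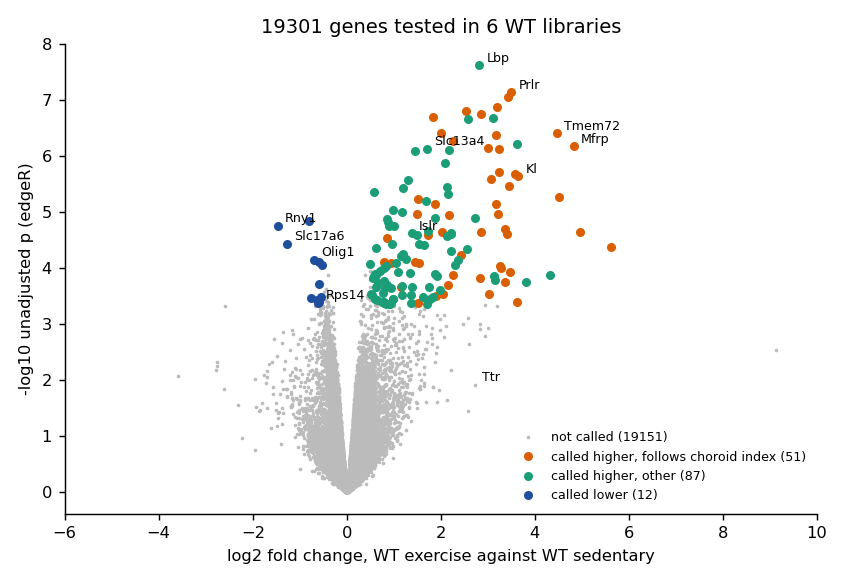
Each point is a gene tested in the 6 WT libraries, with the log2FC of WT exercise against WT sedentary on the x-axis and the negative log10 of the unadjusted edgeR p on the y-axis. Of 150 DEGs, 138 lie to the right, 51 of them genes that track the choroid plexus index (orange), and 12 lie to the left (blue).

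The 3 choroid plexus genes were higher in every exercise library. Kl, a coreceptor for fibroblast growth factor 23 that is also shed into cerebrospinal fluid, was at 8.62, 3.62 and 1.71 CPM in sedentary and at 87.0, 38.8 and 53.8 CPM in exercise mice (log2FC 3.64, SE 0.42, adjusted p = 0.00182). Folr1, which carries folate into cerebrospinal fluid, was at 2.24, 0.724 and 0.0372 CPM in sedentary and at 12.6, 6.51 and 6.70 CPM in exercise mice (log2FC 3.03, SE 0.59, adjusted p = 0.0427). Ttr, the carrier of thyroid hormone and retinol, was the most abundant of them and the most uneven among sedentary mice. It was at 377, 130 and 3.83 CPM in sedentary and at 1745, 727 and 929 CPM in exercise mice, and its log2FC of 2.73 (SE 0.92) did not pass the test (adjusted p = 0.176). None of the 3 overlapped between the groups.

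Their mean log2 CPM was taken as an index of choroid plexus content. It was 4.30, 2.87 and -0.11 in the sedentary and 6.96, 5.84 and 6.12 in the exercise libraries. The group means were 2.35 ± 2.25 and 6.31 ± 0.58 (SD, n = 3), a difference of 3.95 on the log2 scale (two-sided exact permutation p = 0.1, the smallest p that 3 mice against 3 allow). The spread was thus wider among sedentary than among exercise mice, and mouse 192 lay far below the others. Without mouse 192 the difference was 2.73.

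**Figure D2:**
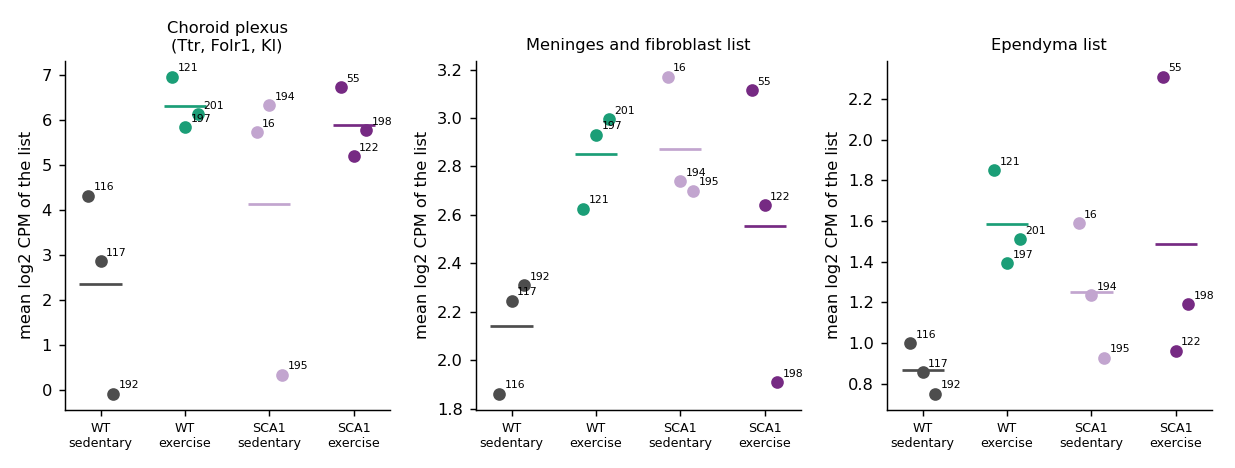
The y-axis gives the mean log2 CPM of Ttr, Folr1 and Kl (left), of the meninges and fibroblast list (middle) and of the ependyma list (right) in each of the 12 libraries, numbered by mouse, with a line at each group mean. The 3 WT exercise libraries lie above the 3 WT sedentary libraries in all panels, whereas the SCA1 groups overlap.

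To keep genes that track the choroid plexus apart from those that do not, the log2 CPM of each gene was correlated with the index over all 12 libraries after the mean of each of the 4 groups had been subtracted. A gene with a Pearson r of at least 0.7 was taken to follow the index. Mice 192 and 195 (SCA1 sedentary) fell farthest below their group means and weigh most in r. Of the 138 higher DEGs, 51 followed the index, 85 did not and 2 predicted genes ran opposite (r of -0.7 or below). None of the 12 lower DEGs followed it, although 8 of them had an r of 0.5 or more. Without SCA1 mice 16 and 55, in which other tissue markers stood apart, 59 DEGs followed it, 1 of them lower, against 6.44% of all genes. Of all genes tested, 3.38% followed the index, and 579 genes ran opposite. Adgrv1 (r = 0.706) lay just above the limit and Lepr (r = 0.69) just below it, so the limit did not fall in a gap.

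**Figure D3:**
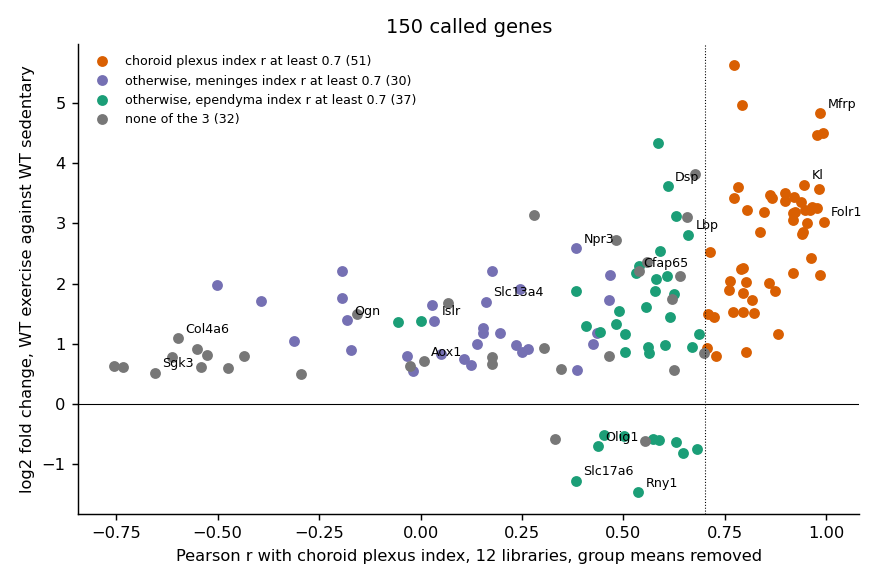
Each point is a DEG, with the Pearson r of its log2 CPM with the choroid plexus index (12 libraries, group means subtracted) on the x-axis and its log2FC in WT mice on the y-axis. The 51 genes to the right of the dotted line at 0.7 follow the index, 30 others follow the meninges index (purple), 37 others the ependyma index (green, 10 of them lower in exercise mice) and 32 follow none of them.

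Genes that followed the index had a median log2FC of 3.01, from 0.80 to 5.63. Of the 51, 23 were on the lists of choroid plexus genes and 28 were not. The largest change among well expressed genes was that of Mfrp, a frizzled-related membrane protein (chr9:44013026-44020484 on GRCm39, plus strand). Mfrp was at 0.965, 0.383 and 0.0372 CPM in sedentary and at 20.1, 8.71 and 13.3 CPM in exercise mice (log2FC 4.83, SE 0.50, adjusted p = 0.000776). Tmem72, a transmembrane protein of the choroid plexus (chr6:116656024-116693884, minus strand), was at 2.18, 0.766 and 0.260 CPM in sedentary and at 34.8, 17.3 and 22.6 CPM in exercise mice (log2FC 4.46, SE 0.44, adjusted p = 0.000672). Sostdc1, a secreted antagonist of BMP and Wnt signalling, was at 0.685, 0.341 and 0 CPM in sedentary and at 12.7, 4.602 and 7.55 CPM in exercise mice (log2FC 4.51, SE 0.57, adjusted p = 0.00323). In each of them the lowest exercise value, that of mouse 197, was several times the highest sedentary value, that of mouse 116.

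Of 35 choroid plexus epithelium genes tested besides these markers, 24 rose, none fell, 33 had an unadjusted p under 0.05 (8.54% of all genes had one and were higher), and the median log2FC was 2.43. The list was written with earlier results of these data known. Transporters and channels that rose included the water channel Aqp1 (log2FC 3.45), the bicarbonate cotransporter Slc4a5 (3.18), carbonic anhydrase Car12 (3.20), the potassium channel subunits Kcne2 (3.26) and Kcnj13 (2.43), and the chloride channel family member Clic6 (2.01), while the nucleoside and monoamine transporter Slc29a4 did not pass (0.21, adjusted p = 0.329). The tight junction proteins Cldn2 (log2FC 3.23) and Cldn1 (2.83) and coagulation factor F5 (3.57) rose too. The prolactin receptor Prlr was at 1.68, 1.49 and 0.818 CPM in sedentary and at 15.5, 9.95 and 20.03 CPM in exercise mice (log2FC 3.50, adjusted p = 0.000469). Enpp2, which makes lysophosphatidic acid, was at 272, 162 and 128 CPM in sedentary and at 1253, 574 and 705 CPM in exercise mice (log2FC 2.17, adjusted p = 0.00515). Otx2, a transcription factor needed for the choroid plexus and also expressed by granule cell precursors, did not pass (log2FC 0.88, adjusted p = 0.125).

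**Figure D4:**
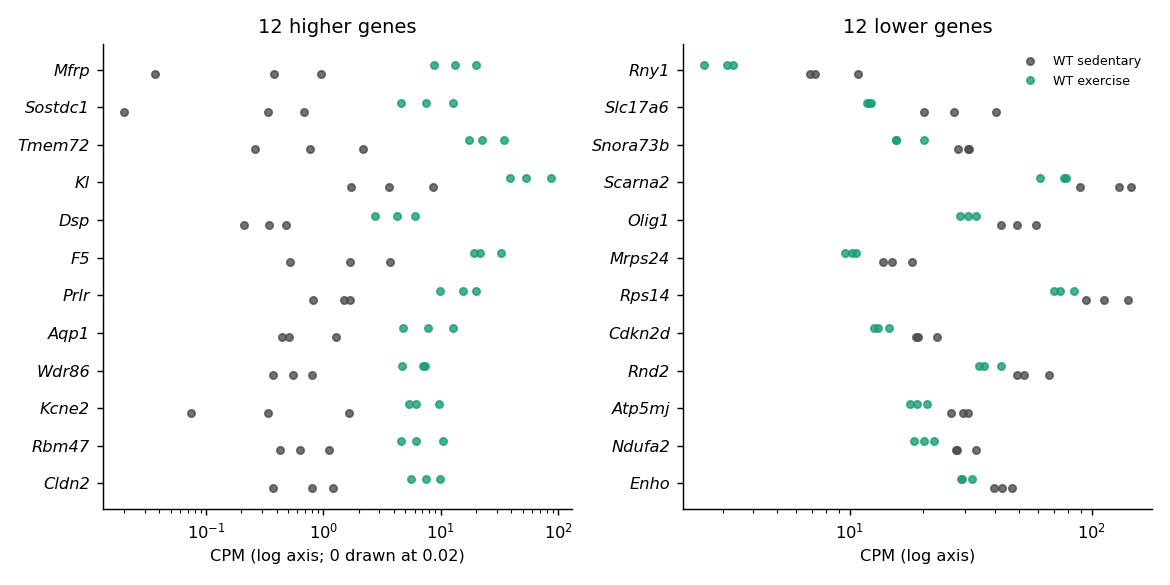
CPM on a log axis (0 drawn at 0.02) for the 12 higher and 12 lower DEGs named by rule, 1 row per gene, with each point a mouse (grey, WT sedentary; green, WT exercise). The groups do not overlap in any row, and the sedentary points of the higher genes spread over a wider range than the exercise points.

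The RefSeq promoter windows of Kl, a gene of the index, and of Mfrp and Tmem72, following DEGs with large log2FCs, are shown. Each holds the 250 bases before the RefSeq start, placed on GRCm39 and read 5′ to 3′ on the strand of the gene. The last 41 bases of the Mfrp window and the last 165 of the Tmem72 window lie inside the gene as GENCODE places it. They were searched on both strands for TAATCC, the core that OTX2 and related homeodomain proteins bind, and capitals mark a match.
Kl, chr5:150875822-150876071, plus strand: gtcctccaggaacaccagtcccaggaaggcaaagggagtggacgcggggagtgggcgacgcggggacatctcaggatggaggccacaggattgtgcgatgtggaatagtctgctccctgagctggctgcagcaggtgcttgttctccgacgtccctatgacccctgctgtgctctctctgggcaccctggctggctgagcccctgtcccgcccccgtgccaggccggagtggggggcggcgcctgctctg
Mfrp, chr9:44012817-44013066, plus strand: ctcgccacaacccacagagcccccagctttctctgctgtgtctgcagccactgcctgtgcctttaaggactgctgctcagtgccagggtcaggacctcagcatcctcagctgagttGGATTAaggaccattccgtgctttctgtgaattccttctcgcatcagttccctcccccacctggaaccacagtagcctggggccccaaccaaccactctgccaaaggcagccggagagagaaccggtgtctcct
Tmem72, chr6:116693720-116693969, minus strand: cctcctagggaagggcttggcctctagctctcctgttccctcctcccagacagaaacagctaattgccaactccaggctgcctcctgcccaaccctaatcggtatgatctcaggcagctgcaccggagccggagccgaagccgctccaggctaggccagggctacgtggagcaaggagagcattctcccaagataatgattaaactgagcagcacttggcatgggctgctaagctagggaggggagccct

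The motif occurred once in the Mfrp window and in neither of the other windows. Among the following DEGs, 38 of 51 had windows in the table, and 4 of 51 windows (7.84%) held it. Among the higher DEGs that did not follow, 60 of 85 had windows, and 4 of 74 windows (5.41%) held it. Of all 15305 windows of tested genes, 801 (5.23%) held it.

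The 85 higher DEGs that did not follow the choroid plexus index changed less, with a median log2FC of 1.26, from 0.50 to 4.33. Many correlated with markers of other tissue that borders the cerebellum. Of the 85, 30 had an r of at least 0.7 with the mean of the meninges and fibroblast list, 38 with that of the ependyma list and 57 with either, and 28 had neither. Of all genes tested, 3.58% reached 0.7 with the meninges and 13.0% with the ependyma index. With the mean of the brainstem list 29 of the 85 reached it (19.5% of all genes), and with that of the oligodendrocyte list 16 (22.3%). Much of this rested on SCA1 mice 16 and 55. Without them 21 of the 85 reached 0.7 with the meninges (4.13% of all genes) and 10 with the ependyma index (7.21%). The brainstem index then had 3 (6.43%) and the oligodendrocyte index 3 (9.18%). The meninges index was 1.86, 2.25 and 2.31 in sedentary and 2.63, 2.93 and 2.996 in exercise libraries, and the ependyma index 1.00, 0.86 and 0.75 against 1.85, 1.39 and 1.51. Neither overlapped between the WT groups, so a change at fixed tissue content and a change in content could not be told apart. Some also lay close below the limit: 28 of the 85 had an r of 0.5 or more with the choroid plexus index. Among these was Lbp, the lipopolysaccharide binding protein, which is on the choroid plexus epithelium list. It was at 1.31, 1.11 and 1.45 CPM in sedentary and at 11.5, 8.003 and 7.91 CPM in exercise mice (log2FC 2.81, adjusted p = 0.000457, r = 0.66).

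The meninges and fibroblast list had 17 genes tested, of which 4 rose, none fell and 13 had an unadjusted p under 0.05 and were higher (median log2FC 0.72). None of the 17 followed the choroid plexus index. Islr, a secreted protein of mesenchymal cells, was at 2.96, 3.92 and 4.09 CPM in sedentary and at 6.92, 11.1 and 10.5 CPM in exercise mice (log2FC 1.39, SE 0.20, adjusted p = 0.00814). Its r was 0.03 with the choroid plexus and 0.98 with the meninges index, of which it is a member. The proteoglycans Ogn (log2FC 1.39, adjusted p = 0.0342) and Dcn (0.66, adjusted p = 0.0308) and the GABA and taurine transporter Slc6a13 (0.83, adjusted p = 0.0492) also rose. The sulfate transporter Slc13a4 had been listed with the choroid plexus. It was at 5.60, 10.0035 and 9.29 CPM in sedentary and at 26.6, 24.5 and 29.2 CPM in exercise mice (log2FC 1.70, SE 0.18, adjusted p = 0.000776), with an r of 0.16 with the choroid plexus and 0.93 with the meninges index. The summed CPM of the meninges list ran from 95.6 to 159 in sedentary and from 149 to 196 in exercise libraries, so the sums overlapped.

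Of 13 ependyma genes tested, 2 rose and 6 had an unadjusted p under 0.05 and were higher (median log2FC 0.58). Cfap65, a protein of motile cilia, was at 1.93, 1.40 and 1.71 CPM in sedentary and at 6.004, 7.05 and 10.04 CPM in exercise mice (log2FC 2.18, SE 0.23, adjusted p = 0.000776). The adenylate kinase Ak7, also found in motile cilia, rose as well (log2FC 1.36, adjusted p = 0.0492), whereas the dynein heavy chain Dnah12 did not pass (log2FC 1.11, adjusted p = 0.052). Foxj1, the transcription factor of motile ciliated cells, did not pass (log2FC 0.38, adjusted p = 0.427). Genes named for axonemal dynein heavy chains were looked at after these values were seen: 4 of 12 tested Dnah genes rose, Dnah2, Dnah3, Dnah9 and Dnah10, against 0.715% of all genes, and all 12 had a log2FC above 0 (51.6% of all genes did). Of 37 tested Cfap genes, named for cilia and flagella, 4 rose and 28 had a log2FC above 0.

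Of 39 collagen chains tested, 5 rose and none fell (median log2FC 0.20). Col8a1 (log2FC 2.85), Col8a2 (2.25) and Col4a4 (1.53) followed the choroid plexus index, and Col6a1 (0.80) followed the meninges index. Col4a6, a basement membrane collagen chain, did neither. It was at 2.15, 2.43 and 3.20 CPM in sedentary and at 5.83, 5.47 and 5.22 CPM in exercise mice (log2FC 1.09, SE 0.19, adjusted p = 0.0234), with an r of -0.60 with the choroid plexus, -0.03 with the meninges and 0.16 with the ependyma index.

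Of the higher DEGs, 14 had an r under 0.5 with the choroid plexus, meninges and ependyma indices over the 12 libraries, of which 7 were predicted genes. The others were Col4a6, Stra6, Slc16a12, Arhgef5, Aox1, Sgk3 and Rnf213, and were named for this after their values were seen. The limit was one-sided, so genes that ran opposite to an index were kept. Among the predicted genes, Gm57462 had an r of -0.85 with the ependyma and Gm47477 one of -0.76 with the choroid plexus index. Sgk3 had an r of -0.65 with the choroid plexus index, whereas Aox1 lay between -0.08 and 0.01 with all 3. Stra6, the cell surface receptor for retinol binding protein, was at 3.39, 1.87 and 3.83 CPM in sedentary and at 9.95, 9.83 and 9.51 CPM in exercise mice (log2FC 1.67, SE 0.22, adjusted p = 0.0035). Aox1, an aldehyde oxidase, was at 15.8, 16.2 and 11.9 CPM in sedentary and at 22.7, 23.2 and 25.8 CPM in exercise mice (log2FC 0.71). Sgk3, a member of the SGK kinase family, was at 12.5, 13.2 and 12.1 CPM in sedentary and at 17.3, 19.2 and 17.5 CPM in exercise mice (log2FC 0.52, adjusted p = 0.042). Rnf213, a ubiquitin ligase, was at 38.7, 41.1 and 42.7 CPM in sedentary and at 63.2, 56.8 and 53.2 CPM in exercise mice (log2FC 0.50), at the limit of the definition. Apart from Stra6 and Col4a6, the 7 genes with symbols changed by a log2FC of 0.93 or less, and in none of them did the groups overlap.

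The 12 lower DEGs had log2FCs from -1.47 to -0.52. Their number depended on single mice: 12, 10 and 7 stayed DEGs without 192, 117 and 121, but 4, 3 and 2 without 116, 197 and 201. All 12 stayed in DESeq2 on the 6 WT libraries and 0 in DESeq2 on all 12. In edgeR 2 stayed on 10 libraries without SCA1 mice 16 and 55, 2 with chromosome Y expression and 0 with the meninges index as a covariate. All 12 had an r of at least 0.7 with the means of the oligodendrocyte (0.82 to 0.99) and brainstem lists, and 10 with the ependyma index. Olig1, with the highest r of 0.99, is itself a member of the oligodendrocyte list, and Slc17a6 of the brainstem list, so these r values are partly with themselves. The oligodendrocyte index was lower and the ependyma index higher in exercise libraries. The brainstem index overlapped between the WT groups, at -2.12, -2.05 and -1.92 in sedentary and -2.46, -2.14 and -0.67 in exercise libraries. Of all genes tested, 22.3%, 19.5% and 13.0% reached 0.7 with the oligodendrocyte, brainstem and ependyma indices. SCA1 mice 16 and 55, whose brainstem lists summed to 234 and 146 CPM against 42.2 CPM or less in WT mice, weighed heavily here. Without them 9 of the 12 reached 0.7 with the oligodendrocyte, 1 with the brainstem and 3 with the ependyma index. Rny1, a small noncoding RNA of Ro ribonucleoproteins (chr6:47765003-47765114, minus strand), fell most, from 6.82, 10.8 and 7.21 CPM in sedentary to 2.50, 3.11 and 3.29 CPM in exercise mice (log2FC -1.47, SE 0.21, adjusted p = 0.00703). Snora73b, a small nucleolar RNA of ribosomal RNA processing (log2FC -0.81), and Scarna2, a Cajal body RNA that guides modification of spliceosomal RNA (-0.76), fell as well. Slc17a6, the vesicular glutamate transporter of brainstem and cerebellar nuclei neurons, was at 26.9, 20.2 and 40.3 CPM in sedentary and at 11.8, 12.2 and 12.004 CPM in exercise mice (log2FC -1.28, SE 0.20, adjusted p = 0.0109). It is a member of the brainstem list, whose 23 genes summed to between 21.7 and 42.2 CPM in sedentary and between 12.4 and 17.7 CPM in exercise libraries. Slc17a6 itself made up most of the sum in every WT library, so the lower sums largely restate its own change. Of that list only Slc17a6 and Tph2 were expressed enough to be tested, and the part of tissue content in the change was not tested. Drd2 and Bcl11b of the midbrain and forebrain list were also highest in mouse 192, where Drd2 was at 4.24 CPM against 0.723 CPM or less in the other 5 mice. That list as a whole was not: it summed to 133 CPM in mouse 192, against 151 and 136 CPM in sedentary mice 116 and 117.

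The transcription factor Olig1 of the oligodendrocyte lineage was at 58.9, 42.2 and 49.0 CPM in sedentary and at 33.1, 30.8 and 28.7 CPM in exercise mice (log2FC -0.70, SE 0.12, adjusted p = 0.0179). It was the only DEG among 22 oligodendrocyte genes tested. Of the 22, 17 had an unadjusted p under 0.05 and were lower (8.02% of all genes), and the median log2FC was -0.42. The myelin genes Mbp (log2FC -0.44, adjusted p = 0.0367) and Cnp (-0.47, adjusted p = 0.058) stayed short of the definition, the first by its size and the second by its p. The list summed to between 3803 and 4938 CPM in sedentary and between 3180 and 3338 CPM in exercise libraries.

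Genes of protein synthesis and respiration shifted downward together by small amounts. Of 81 cytosolic ribosomal protein genes tested, 80 had a log2FC below 0 (48.4% of all genes did), 75 had an unadjusted p under 0.05 and were lower, and only Rps14 was a DEG (median log2FC -0.38). Rps14 was at 141, 94.5 and 113 CPM in sedentary and at 84.3, 74.2 and 69.8 CPM in exercise mice (log2FC -0.61, SE 0.13, adjusted p = 0.0487). Of 82 nuclear-encoded subunits of oxidative phosphorylation tested, 80 had a log2FC below 0 and 64 an unadjusted p under 0.05, with Atp5mj of ATP synthase (log2FC -0.59, adjusted p = 0.0184) and Ndufa2 of complex I (-0.54, adjusted p = 0.0444) as the 2 DEGs (median log2FC -0.30). The remaining lower DEGs were Mrps24, a mitochondrial ribosomal protein, Cdkn2d, an inhibitor of cyclin dependent kinases, Rnd2, a small GTPase, and Enho, which encodes the peptide adropin, with log2FCs from -0.63 to -0.52. Of 46 replication-dependent histone genes tested, 25 had an unadjusted p under 0.05 and were lower and none was a DEG (median log2FC -0.49).

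These downward medians moved with other measures. Without mouse 116, the sedentary library with the most counted pairs and the smallest share without a gene, the ribosomal median was -0.26 and that of oxidative phosphorylation -0.22. With the meninges index as a covariate, a setting chosen after the data had been seen, they were 0.11 and 0.04, and the histone median was 0.03. With the choroid plexus index as a covariate the ribosomal and oxidative phosphorylation medians were -0.56 and -0.45. Gene models of the type TEC, mostly single-exon transcripts of uncertain standing, moved the other way: 88.3% of 1592 tested had a log2FC above 0 (median 0.31). The part of RNA quality in these shifts was not tested, and which libraries came from RNA of lower integrity is not given in the sources used here.

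**Figure D5:**
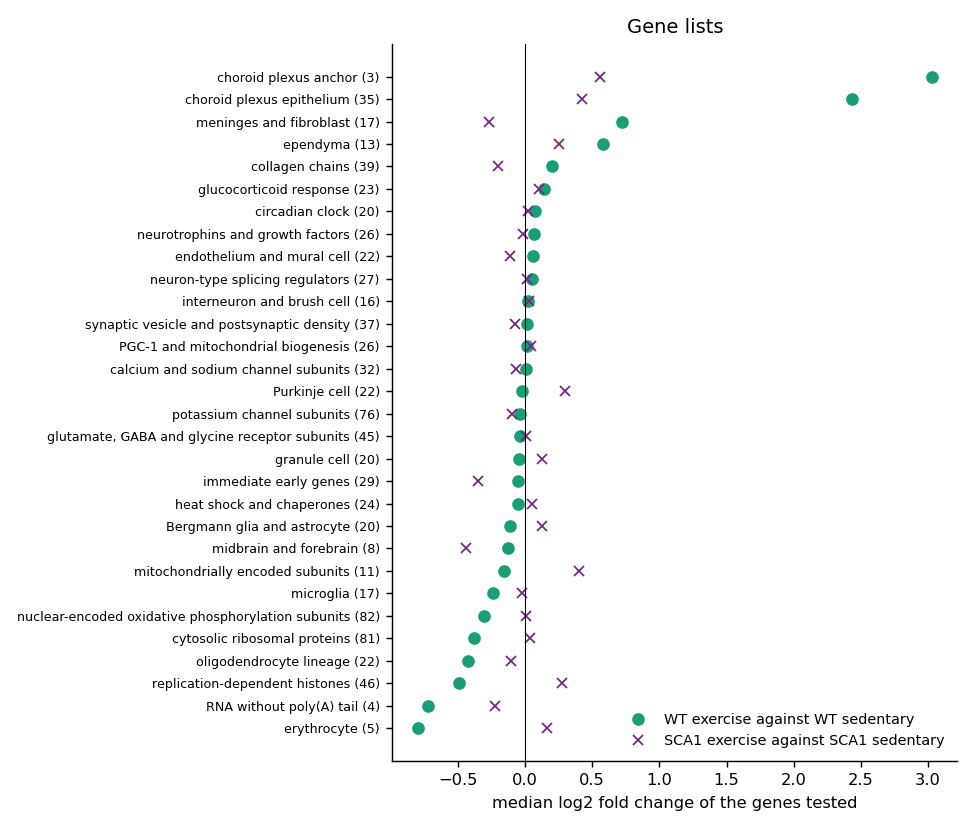
The x-axis gives the median log2FC of the genes tested in each list (number in parentheses) in WT mice (circles) and in SCA1 mice (crosses). In WT mice the choroid plexus, meninges and ependyma lists lie to the right, and the neuronal lists lie near 0. The small lists of erythrocyte genes (5) and of RNA without a poly(A) tail (4) lie farthest left. The oligodendrocyte, ribosomal, oxidative phosphorylation and histone lists also lie to the left.

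Markers of the neurons of the cerebellar cortex held no DEG. As 0.777% of all genes tested were DEGs, lists of this size could hold none at the general share. No gene of the Purkinje cell list (22 tested, median log2FC -0.02), the granule cell list (20 tested, -0.05) or the interneuron and brush cell list (16 tested, 0.02) passed. At an unadjusted p under 0.05 there were 2 lower Purkinje cell genes, 3 lower granule cell genes, and 3 higher and 2 lower interneuron and brush cell genes. The shares over all genes tested were 8.54% higher and 8.02% lower at that p. DESeq2 on the 6 libraries called 1 gene, of the interneuron and brush cell list, against 338 of all 19301 genes tested. Pcp2 of Purkinje cells was at 204, 189 and 204 CPM in sedentary and at 186, 159 and 166 CPM in exercise mice (log2FC -0.22, adjusted p = 0.173), and the calcium binding protein Pvalb had a log2FC of -0.38 (adjusted p = 0.0759). Bergmann glia and astrocyte genes (20 tested, median -0.11) and microglia genes (17 tested, -0.24) held no DEG, although 8 of each had an unadjusted p under 0.05 and were lower. Endothelial and mural cell genes (22 tested, median 0.06) held none either, with 1 at an unadjusted p under 0.05. Erythrocyte genes (5 tested, median -0.80) held no DEG, and 1 was lower at that p. They summed to between 23.4 and 74.3 CPM in sedentary and between 15.5 and 35.2 CPM in exercise libraries, so the sums overlapped. The part of blood content was not tested.

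Lists of genes often studied after exercise held no DEG in edgeR. As 0.777% of all genes tested were DEGs, lists of this size could hold none at the general share. At an unadjusted p under 0.05, 8.54% of all genes were higher and 8.02% lower, and DESeq2 on the 6 libraries called 338 of 19301. Of 29 immediate early genes tested, 7 had an unadjusted p under 0.05 and were higher and 5 were lower, and DESeq2 on the same libraries called 2. Of 26 neurotrophins and growth factors 7 were higher and 3 lower at that p, and DESeq2 called 1. Of 26 mitochondrial biogenesis genes around PGC-1 only 1 reached it, and DESeq2 called 0. Of 37 synaptic vesicle and postsynaptic density genes 3 were higher and 3 lower, and DESeq2 called 0. Bdnf was at 14.5, 16.1 and 13.9 CPM in sedentary and at 19.4, 16.2 and 13.4 CPM in exercise mice, and the groups overlapped (log2FC 0.14, SE 0.14, adjusted p = 0.644). Ppargc1a, which encodes PGC-1α, had a log2FC of 0.04 (SE 0.09, adjusted p = 0.849), and Vegfa of 0.00 (SE 0.07). Ntrk3, the receptor for neurotrophin 3, had a small difference. It was at 700, 726 and 661 CPM in sedentary and at 842, 860 and 875 CPM in exercise mice (log2FC 0.30, SE 0.06, adjusted p = 0.0466), under the log2FC limit of 0.5. Arc, an activity-regulated gene, had a log2FC of -0.43 (adjusted p = 0.0758).

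Among 20 circadian clock genes, 4 had an unadjusted p under 0.05, all higher (8.54% of all genes were), and none was a DEG in edgeR or DESeq2. Per1 was at 110, 121 and 130 CPM in sedentary and at 163, 167 and 136 CPM in exercise mice (log2FC 0.37, SE 0.09, adjusted p = 0.0868), and Per2 had a log2FC of 0.37 (adjusted p = 0.115). Among 23 glucocorticoid response genes, 7 had an unadjusted p under 0.05 and were higher (8.54% of all genes) and 3 were lower (8.02%). None was a DEG (0.777% of all genes), while DESeq2 called 1 (338 of all 19301 genes). Sgk1 had a log2FC of 0.34 (adjusted p = 0.104). Among ion channels, the sodium channel Scn7a was at 0.342, 0.468 and 0.335 CPM in sedentary and at 1.53, 1.08 and 1.69 CPM in exercise mice (log2FC 1.91, adjusted p = 0.0256). Its r was 0.70 with the meninges, 0.86 with the ependyma and 0.89 with the brainstem index, and -0.12, -0.06 and -0.16 without SCA1 mice 16 and 55.

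In SCA1 mice the same contrast held 0 DEGs in the 12-library edgeR model and 441 genes at an unadjusted p under 0.05 (1.19% higher and 0.978% lower). The choroid plexus index of SCA1 mice was 5.73, 6.33 and 0.35 in sedentary mice 16, 194 and 195 and between 5.19 and 6.72 in exercise mice, a difference of 1.76 (exact permutation p = 0.6). The 51 following DEGs had a median log2FC of 0.43 in SCA1 mice, 43 of them above 0, and the 85 others had a median of 0.00, 44 of them above 0. Over all genes tested, 53.8% had the same sign in SCA1 as in WT mice. The 51 were chosen by their correlation with this index, which among SCA1 mice was lowest in sedentary mouse 195. Mfrp, for example, had a log2FC of 0.57 in SCA1 mice. The test of the difference between genotypes passed for 0 of the 150 DEGs in edgeR. Among the 150, DESeq2 called the difference for Zfp185 alone (2 genes over all genes tested), whose log2FC was lower in SCA1 than in WT mice (-3.55, SE 0.66, adjusted p = 0.00125, against an adjusted p of 0.882 in edgeR). In edgeR, 104 of the 150 had an unadjusted p under 0.05 for the difference (3.78% of all genes), but the WT libraries that chose the genes entered that test.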

How the data were processed

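Cerebellar RNA was depleted of ribosomal RNA and made into strand-specific paired-end libraries by the authors. They checked reads with FastQC (0.11.9 in the submitters' processing notes; the study's methods name another version), trimmed files of high adapter content with fastp 0.24.0, aligned to GRCm39 with STAR 2.7.10a and deposited the raw counts STAR wrote for every gene (unstranded, forward and reverse), not normalized. The annotation is not given in the sources used here. Reverse-strand counts of 56941 genes were used. In R 4.3.3, the 6 WT libraries were filtered with filterByExpr, normalized by TMM and tested in edgeR 4.0.16. DESeq2 1.42.0 was an alternative. An earlier account fitted all 12 libraries; the 6-library model was chosen with its result known, since SCA1 mice 16 and 55 have raised multi-mapped shares. Log2 CPM used a prior count of 2. Genes were placed by GENCODE M39, which matched 56323 IDs.

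The gene lists and members were chosen with earlier results of these data known. Named are the 12 higher and 12 lower DEGs with the largest log2FC, a mean log2 CPM of at least 1, a symbol that is no predicted-gene name and no overlap between groups; Ttr, Folr1 and Kl; and from each list its DEGs or, with fewer than 3, those of lowest p. Genes outside this rule were all named after their values were seen. They were Adgrv1, Lepr, Otx2, Slc29a4, Foxj1, Bdnf, Ppargc1a, Vegfa, the Dnah genes, Zfp185, Stra6 and other genes with an r under 0.5 with all 3 indices. The labels do not say whether same-group mice share a litter, so p-values measure the spread between these mice. The script was tested on simulated data.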

Additional observations from a re-analysis of the deposited data

How the results depend on the processing

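The number of DEGs was 150 and changed with the model. It was 338 with DESeq2 on the 6 WT libraries, 65 with DESeq2 and 0 with edgeR on all 12, 64 with edgeR on 10 libraries without SCA1 mice 16 and 55, 652 when every gene with a count was tested, 76 with chromosome Y expression as a covariate, 305 with bands of mouse numbers as a covariate, and 1146 and 0 with the choroid plexus index as a covariate in 6 and 12 libraries. Leaving out each mouse gave 71 (without 201) to 305 (without 192). The number without 117 was 238. Settings chosen after the data had been seen gave 59 (tissue lists and following genes left out) and 47 (meninges index as a covariate). Of the 24 genes named by size, 8, 0 and 9 stayed DEGs in DESeq2 and edgeR on 12 and edgeR on 10 libraries, 13 with chromosome Y, 0 with the choroid plexus index in 12 libraries, 8 and 12 in the later settings, and 13 to 24 without each mouse. The choroid plexus index differed by 2.73 to 4.93 without each mouse. The following DEGs numbered 87 with a limit of r = 0.5, 8 of them lower in exercise mice, against 16.1% of all genes. The genotype difference passed for 1 of the 150 DEGs with DESeq2. Correlations with the other indices without SCA1 mice 16 and 55 were added after the data had been seen.

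Signs turned for Folr1 (-0.29) and Ttr (-1.61) with the choroid plexus index as a covariate, for Kcne2 (-0.13), Folr1 (-0.093) and Ttr (-1.21) with it in 12 libraries, where the index holds Folr1 and Ttr, and for Rps14 (0.013) and Rnd2 (0.054) with the meninges index. The causes of the other changes were not tested. No paired analysis was possible because the labels give no replicate number that the groups share. Genes at a few counts, such as Sostdc1 in mouse 192, have uncertain fold changes.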

Other observations

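Of 76 potassium channel subunits tested in WT mice, 2 rose, both of them the choroid plexus genes Kcne2 and Kcnj13, and 10 were lower at an unadjusted p under 0.05. The shares over all genes tested were 0.777% DEGs, and 8.54% higher and 8.02% lower at that p. Kcnc2, a channel of fast-firing neurons, was at 8.78, 6.60 and 16.6 CPM in sedentary and at 4.43, 5.02 and 4.94 CPM in exercise mice (log2FC -1.15, adjusted p = 0.0862 in edgeR). The metabotropic glutamate receptor Grm5 (log2FC -0.92, adjusted p = 0.107) and the GABA receptor subunit Gabra5 (-1.70, adjusted p = 0.145) were, like Kcnc2 and Slc17a6, highest in sedentary mouse 192. Of 27 neuron-type splicing regulators 2 were higher at an unadjusted p under 0.05, and of 24 heat shock and chaperone genes 1 was higher and 3 were lower, with no DEG in either list in edgeR or in DESeq2 on the 6 libraries. The 11 mitochondrially encoded subunits tested had a median log2FC of -0.16, against -0.30 for the nuclear-encoded ones, and 3 were lower at an unadjusted p under 0.05 with no DEG by either tool.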
